A study of Rattus norvegicus with 16 samples.

Results

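Neuronal nicotinic acetylcholine receptors were described here through 6 subunit genes, Chrna3, Chrna4, Chrna5, Chrna7, Chrnb2 and Chrnb4. The members were the probe sets whose only gene symbol in the platform annotation is one of these names, which gave 1 probe set per gene, 6 of the 31042 probe sets that are not controls and 6 of 14217 named genes. The probe sets are 1369001_at for Chrna3, 1369252_a_at for Chrna4, 1369019_at for Chrna5, 1387419_at for Chrna7, 1369432_at for Chrnb2 and 1369405_a_at for Chrnb4. The series measured rat adrenal medulla on 16 Affymetrix arrays and set medullary hyperplasia and pheochromocytoma, a tumour of catecholamine-producing chromaffin cells, beside wild-type medulla of littermates, which the study calls age-matched. All rats were of the strain Sprague–Dawley white eye/Wistar–Kyoto. The mutants were p27Kip1 (Cdknb1 in the labels) mutant rats. The labels name no zygosity, transgene or agent for any group. The young groups were 8 hyperplasias and 2 wild-type pools, of 2 and 3 animals, all at 2 months. The older groups were 4 pheochromocytomas, 3 at 8 months and 1 at 9 months, and 2 wild-type pools of 2 animals each, 1 at 10 months and 1 joining animals of 12 and 17 months. The old pools were thus older than every tumour-bearing rat, and lesion and this gap in age cannot be told apart. A pool shows less than the spread between single animals, so p-values measure the spread between these samples only.

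A nicotinic receptor is a ring of subunits around a cation channel that opens when acetylcholine binds between an alpha subunit and its neighbour. In the adrenal medulla the splanchnic nerve releases acetylcholine onto chromaffin cells, the channel depolarises them, voltage-gated calcium channels open and catecholamines are secreted. Chrna3 and Chrnb4 code for the subunits of the main receptor of sympathetic ganglia and chromaffin cells, and Chrna5 for an accessory subunit that joins it. These genes lie beside each other in 1 cluster. Chrna7 codes for a subunit that forms a channel on its own with high calcium permeability, while Chrna4 and Chrnb2 make up the most common nicotinic receptor of the brain.

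The promoter windows below belong to Chrna7 and to the genes of the cluster, because these were the members that split the hyperplasia arrays in opposite directions, as described further on. Each runs from 250 bases before to 50 bases after the RefSeq start, 5′ to 3′ on the gene's strand, on the GRCr8 build. The windows lie at chr1:126249080-126249379 (minus strand) for Chrna7, chr8:64311202-64311501 (minus) for Chrna3, chr8:64333060-64333359 (minus) for Chrnb4 and chr8:64265629-64265928 (plus) for Chrna5. Capitals mark the GC box GGGCGG on either strand, the letters that factors of the Sp family recognise.
Chrna7: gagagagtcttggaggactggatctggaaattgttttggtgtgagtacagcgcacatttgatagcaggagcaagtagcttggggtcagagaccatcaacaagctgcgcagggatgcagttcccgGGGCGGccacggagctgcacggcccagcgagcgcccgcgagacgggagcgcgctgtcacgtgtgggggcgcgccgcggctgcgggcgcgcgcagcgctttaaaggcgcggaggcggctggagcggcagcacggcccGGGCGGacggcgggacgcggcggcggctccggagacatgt
Chrna3: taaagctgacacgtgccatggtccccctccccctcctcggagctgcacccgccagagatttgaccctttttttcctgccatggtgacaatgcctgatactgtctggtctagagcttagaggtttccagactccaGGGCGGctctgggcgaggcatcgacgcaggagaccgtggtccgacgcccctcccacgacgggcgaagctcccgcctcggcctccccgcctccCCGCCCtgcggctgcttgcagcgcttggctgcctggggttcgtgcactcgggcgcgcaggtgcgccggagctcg
Chrnb4: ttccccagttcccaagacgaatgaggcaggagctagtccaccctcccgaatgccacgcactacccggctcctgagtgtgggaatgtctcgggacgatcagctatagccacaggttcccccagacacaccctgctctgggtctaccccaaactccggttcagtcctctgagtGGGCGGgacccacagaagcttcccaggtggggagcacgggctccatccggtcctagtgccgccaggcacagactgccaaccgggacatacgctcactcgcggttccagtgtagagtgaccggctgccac
Chrna5: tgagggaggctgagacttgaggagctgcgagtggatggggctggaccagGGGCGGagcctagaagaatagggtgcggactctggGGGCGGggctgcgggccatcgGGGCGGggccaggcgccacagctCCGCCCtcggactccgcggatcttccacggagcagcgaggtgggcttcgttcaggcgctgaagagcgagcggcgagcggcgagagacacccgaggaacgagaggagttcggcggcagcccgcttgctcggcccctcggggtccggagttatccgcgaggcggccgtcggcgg

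All 6 members had an entry in the RefSeq promoter table. The GC box occurred 4 times in the window of Chrna5, 3 times in that of Chrna4, 2 times in those of Chrna3 and Chrna7 and 1 time in those of Chrnb2 and Chrnb4. It was present in 33.1% of all 33469 windows of 300 bases. The windows of the members were rich in G and C, from 61% in Chrnb2 to 74.7% in Chrna4, against a median of 51.7% over all windows. They held 14 to 37 CpG pairs against a median of 7, with the most in Chrna7 and the fewest in Chrnb2. The E-box CAGCTG, the Egr1 letters GCGNGGGCG and the cAMP-response core TGACG, searched on both strands, were not in any of the 6 windows. They were in 15.1%, 4.98% and 21.2% of all windows. Whether the GC boxes bear on the split of the hyperplasia arrays was not tested.

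Array medians (log2) lay at 6.51 to 6.61, lowest in the old pools (6.51 and 6.52). First quartiles lay at 4.71 to 4.84 on the young arrays and 4.86 to 4.93 on the older ones, without overlap. Markers of chromaffin cells read high in every group. The chromaffin mean (log2, over 8 of 9 listed markers with a probe set) lay at 13.21 to 13.34 in young wild type, 13.13 to 13.26 in hyperplasia, 12.64 to 13.06 in old wild type and 13.03 to 13.51 in pheochromocytoma. Markers of adrenal cortex were present in every group. Their mean over 10 markers was 12.31 to 12.41 in the young pools and 11.06 to 11.91 in hyperplasia, and 12.73 to 13.03 in the old pools and 10.94 to 12.39 in pheochromocytoma. All mutant arrays lay below the pools of their age. Cdkn1b, the mutated gene, read 11.58 to 11.86 in hyperplasia and 11.39 to 11.70 in pheochromocytoma, above the pools (10.45 to 11.04), a level that does not show the mutation itself. The hexokinase control probe sets read more at the 3′ end than at the 5′ end, as RNA loses its 5′ part when degraded or shortly copied, and this excess was 1.07 to 1.63 on the young arrays and 2.16 to 3.30 on the older ones, without overlap.

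Xist, which the silenced X chromosome of female cells transcribes, went against the labelled sex on 4 hyperplasia arrays and on both young pools, and on none of the older arrays. The hyperplasia arrays fell into 4 with Xist (11.29 to 11.77 log2; replicates 3 to 6) and 4 without it (2.86 to 3.88; replicates 1, 2, 7 and 8). Pairs of arrays from the same set correlated at 0.989 to 0.996 over probe sets and pairs from different sets at 0.981 to 0.990. Whether the labels or the samples were exchanged was not tested, and no labelled sex was used in the fit. Levels are given as log2 values. Differences are on the same scale, with their standard errors (±), from 1 limma fit to all 16 arrays. A gene passed at a Benjamini-Hochberg adjusted p under 0.05 over all 31042 probe sets. Values are not set between genes, since probe sets differ in brightness for reasons other than RNA amount.

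In hyperplasia Chrna7 rose and was the only member to pass the test. The young wild-type pools read 6.97 and 6.95, and the 8 hyperplasia arrays read from 7.29 through a median of 8.08 to 8.87. All 8 hyperplasia arrays lay above both pools, but they spread over a wide range while the pools were almost equal. Chrna7 was higher in hyperplasia by 1.17 ± 0.31, or 2.25-fold (95% confidence interval 0.51 to 1.83, adjusted p = 0.0319). Of all probe sets, 1.26% had a larger difference in size. In bulk tissue, more cells that carry a transcript and more RNA per cell cannot be told apart. Of the 6 members 1 passed, against 7.40% of all probe sets in either direction, 4.32% higher and 3.08% lower. The call was lost without young pool 1 (1.19, adjusted p = 0.161) and without young pool 2 (1.16, adjusted p = 0.216), with the size kept. When the mean of the cortex markers entered the fit the difference was 1.01 (adjusted p = 0.268). The young pools were above every hyperplasia in cortex markers, and the part of that in the difference was not tested otherwise.

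Chrnb4, the partner of Chrna3 in the ganglionic receptor, did not pass. The pools read 8.58 and 8.84, and hyperplasia read from 8.97 through a median of 9.18 to 9.68. Again all 8 hyperplasia arrays lay above both pools, though by a small margin at the lower end. The difference was 0.56 ± 0.29 (95% confidence interval -0.057 to 1.18, adjusted p = 0.269). Members above the pools on every array were 2 of 6, against 9.81% of all probe sets above and 19.2% in either direction.

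**Figure D1:**
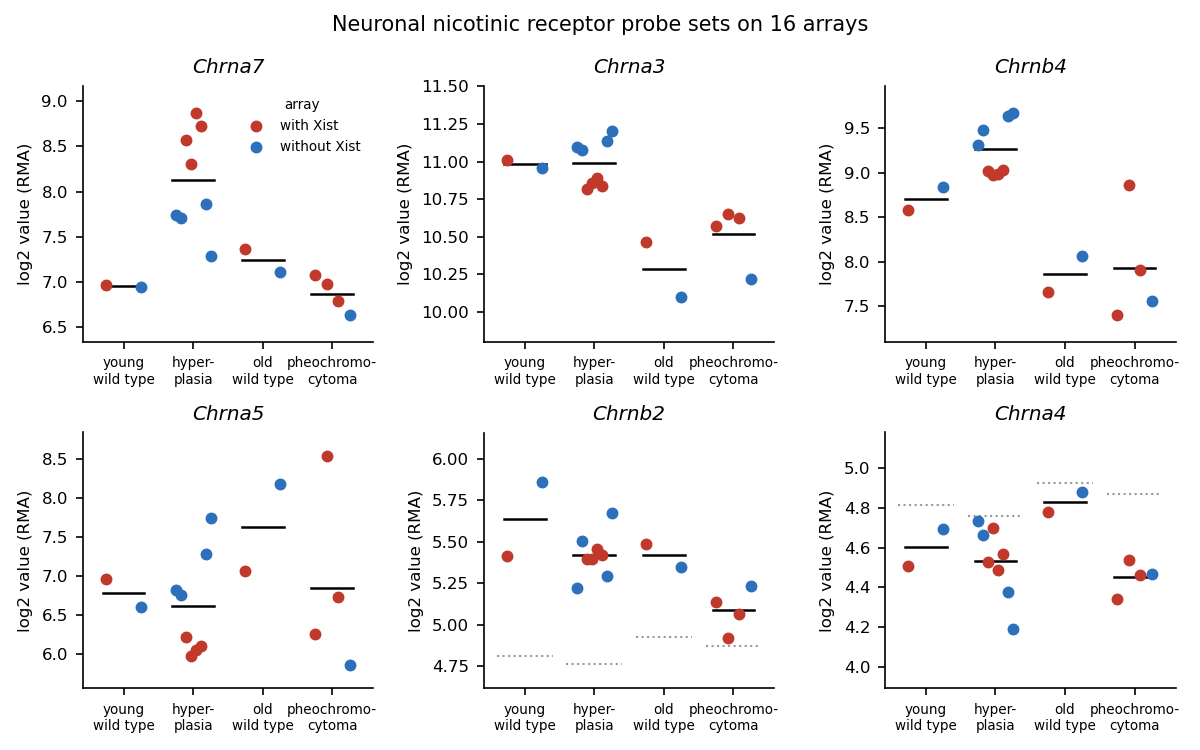
Log2 values of the 6 nicotinic receptor probe sets on the 16 arrays by group, red for arrays with Xist and blue for arrays without it; black lines are group means and dotted lines, where in range, the group's mean first quartile of all probe sets. The 8 hyperplasia arrays read 7.29 to 8.87 for Chrna7, all above the young pools, and Chrna4 lay under the first quartile of its array on all 16.

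Chrna3, which supplies the alpha subunit of the ganglionic receptor, was level between the young groups. The pools read 11.01 and 10.96, and hyperplasia read from 10.82 through a median of 10.99 to 11.20, on both sides of the pools. The difference was 0.0051 ± 0.14 (95% confidence interval -0.28 to 0.29, adjusted p = 0.989). That interval leaves out changes above 0.29 in either direction, so this was the most tightly bounded of the cluster genes.

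Chrna5, the accessory subunit, varied most within hyperplasia. The pools read 6.96 and 6.61, and hyperplasia read from 5.98 through a median of 6.49 to 7.75. The hyperplasia arrays lay on both sides of the pools, with an SD of 0.65 against 0.15 for Chrna3. The difference was -0.16 ± 0.56, and its 95% confidence interval, -1.34 to 1.02, leaves a change of over 1 log2 unit in either direction possible (adjusted p = 0.904).

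Chrnb2 and Chrna4, the subunits of the main brain receptor, gave dim signals. Chrnb2 read 5.42 and 5.86 in the young pools and from 5.22 through a median of 5.41 to 5.67 in hyperplasia, with overlap (-0.22 ± 0.13, adjusted p = 0.333). Chrna4 read 4.51 and 4.69 in the pools and from 4.19 through a median of 4.55 to 4.74 in hyperplasia, also with overlap (-0.070 ± 0.12, adjusted p = 0.797). Chrna4 lay below the first quartile of its array on all 16 arrays, so its values carry little signal over background.

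**Figure D2:**
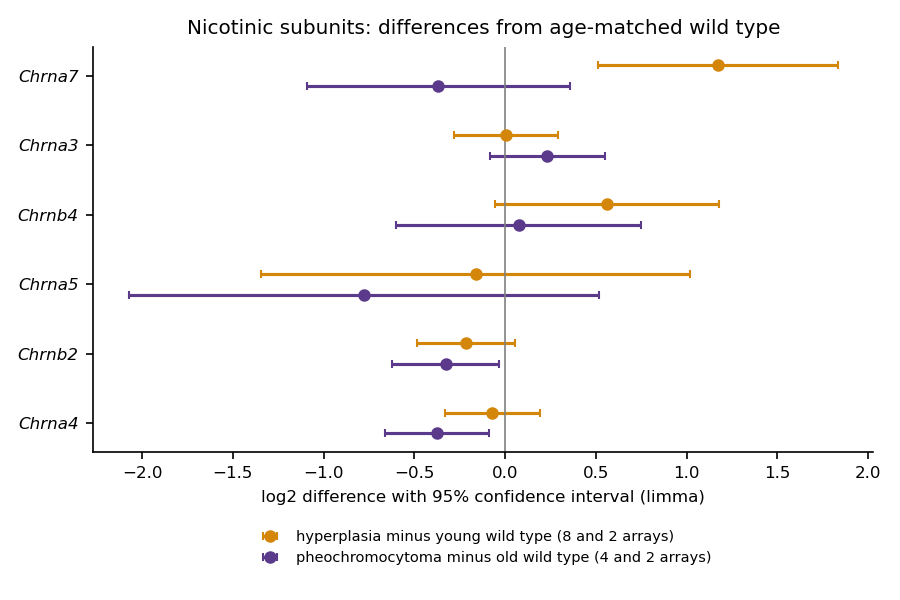
Log2 difference (x axis) of each subunit gene, orange for hyperplasia minus young wild type and purple for pheochromocytoma minus old wild type, with 95% confidence intervals from limma. Only the orange interval of Chrna7 (0.51 to 1.83) passed the adjusted test, and its purple point lies on the other side of 0.

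In pheochromocytoma against old wild type none of the 6 members passed in limma, against 14.3% of all probe sets (8.31% higher and 5.95% lower). Of the 4425 calls over all probe sets 2579 were higher, and with each array centred on its median 1938 of 4354 were. At an unadjusted p under 0.05 there were 2 of 6, Chrna4 and Chrnb2, against 29.6% of all probe sets. Chrna7 read 7.08, 6.98, 6.79 and 6.64 in the tumours and 7.37 and 7.11 in the pools. All 4 tumours lay below both pools, the nearest by a narrow gap. The difference was -0.37 ± 0.34 (95% confidence interval -1.09 to 0.36, adjusted p = 0.510).

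Chrna3 read 10.57, 10.65, 10.62 and 10.22 in the tumours and 10.47 and 10.10 in the old pools. Replicate 4 lay between the pools and the other tumours above them (0.23 ± 0.15, adjusted p = 0.320), and the difference was 0.050 without old pool 2 and 0.41 without old pool 1. Chrnb4 read 7.40, 8.87, 7.90 and 7.56 in the tumours and 7.66 and 8.06 in the pools. Tumour replicate 2 was the highest, and the other tumours lay within or below the range of the pools (0.074 ± 0.32, adjusted p = 0.908). Chrna5 read 6.26, 8.54, 6.73 and 5.86 in the tumours and 7.07 and 8.18 in the pools. Replicate 2 was again the highest tumour and the only one above the pools (-0.78 ± 0.61, adjusted p = 0.426). The difference was -0.22 without old pool 2, -1.33 without old pool 1 and -1.34 without tumour replicate 2, and passed in none of these. Replicate 2 was thus the tumour with the highest value of each of the cluster genes.

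Chrnb2 read 5.14, 4.92, 5.07 and 5.24 in the tumours and 5.49 and 5.35 in the old pools. All tumours lay below both pools (-0.33 ± 0.14, adjusted p = 0.126). Chrna4 read 4.34, 4.54, 4.46 and 4.47 in the tumours and 4.78 and 4.88 in the pools. These tumours too lay below both pools, at values under the first quartile of each array (-0.38 ± 0.14, adjusted p = 0.0761). Members below the pools on all 4 tumours were therefore 3 of 6, Chrna4, Chrna7 and Chrnb2, against 19.9% of all probe sets below and 39.8% in either direction.

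Exact permutation tests over the arrays, two-sided and 12 in all, gave p = 0.0222 for Chrna7 and p = 0.0444 for Chrnb4 in hyperplasia. The exact p was 0.0667 for Chrna4 and Chrnb2 in pheochromocytoma. The smallest p these designs allow is 0.0222 for 8 arrays against 2 and 0.0667 for 4 against 2. Adjusted over the 12 tests by the Benjamini-Hochberg method, none of these exact p-values was below 0.2.

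Chrna7 was the only member with all mutant arrays on opposite sides of their pools at the 2 ages. Of all probe sets, 0.219% had this pattern of hyperplasia above and pheochromocytoma below, and 0.522% had it either way round. The difference between the pheochromocytoma and hyperplasia effects on Chrna7 was -1.54 ± 0.46 (95% confidence interval -2.52 to -0.56). Its unadjusted p in limma was 0.00427 and its adjusted p 0.244, so the difference did not pass. None of the 6 members passed this test, and 0.0258% of all probe sets did. At an unadjusted p under 0.05 there was 1 of 6, against 11.1% of all probe sets. For the other members the difference of effects was 0.23 for Chrna3, -0.31 for Chrna4, -0.62 for Chrna5, -0.11 for Chrnb2 and -0.49 for Chrnb4.

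Set directly against hyperplasia, pheochromocytoma had lower values of 4 members. Chrnb4 was lower by 1.34 ± 0.23 (2.53-fold, adjusted p = 0.000184), with all tumours (7.40 to 8.87) below all hyperplasias (8.97 to 9.68). Chrna7 was lower by 1.26 ± 0.24 (2.39-fold, adjusted p = 0.000575), again without overlap. Chrna3 was lower by 0.47 ± 0.11 (1.39-fold, adjusted p = 0.00185), without overlap. Chrnb2 was lower by 0.33 ± 0.10 (adjusted p = 0.0129), with 1 tumour inside the range of the hyperplasias. Chrna5 (0.23 ± 0.43, adjusted p = 0.710) and Chrna4 (-0.078 ± 0.096, adjusted p = 0.553) did not pass. Of all probe sets, 40.7% passed in this comparison, 20.3% lower. The groups did not overlap for 26.4%. The 3′ excess of the hexokinase controls moved with it, and with that excess as a covariate none of the 6 passed in limma (1013 of all probe sets did, against 12631 without it), and lesion, age and RNA or labelling quality cannot be told apart in this comparison. With the covariate the differences of Chrnb4 (-0.38) and Chrna7 (-0.64) were smaller, those of Chrna3 (-0.62) and Chrnb2 (-0.71) larger.

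In wild type Chrna3 was lower in the old pools (10.47 and 10.10) than in the young ones (11.01 and 10.96). The difference was -0.70 ± 0.17, or 1.63-fold (adjusted p = 0.00788), and the call was lost without old pool 2 (-0.52, adjusted p = 0.0946) and with only the arrays compared (adjusted p = 0.0612). With the hexokinase covariate the difference was -0.85 and did not pass (adjusted p = 0.146). The cortex marker mean was higher in the old pools (12.73 to 13.03 against 12.31 to 12.41) and the chromaffin mean lower (12.64 to 13.06 against 13.21 to 13.34). With the cortex mean as a covariate the difference was -0.83 (adjusted p = 0.00294), and the part of the chromaffin mean was not tested. Chrnb4 was also lower in both old pools (-0.85 ± 0.37, adjusted p = 0.108), and Chrna5 higher in both (0.84 ± 0.70, adjusted p = 0.415), but neither passed. Chrna7 (0.28 ± 0.39), Chrna4 (0.23 ± 0.16) and Chrnb2 (-0.22 ± 0.16) did not pass either. Of all probe sets, 23.7% passed between old and young pools, 13.3% lower, and with 2 pools a side the values did not overlap for 61.9%, lower in the old pools for 31.9%. These comparisons share their arrays with the ones above.

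The order of group levels differed between the members. For Chrna7 it ran from hyperplasia (8.13 ± 0.56, SD, n = 8) through old wild type (7.24 ± 0.18, n = 2) and young wild type (6.96 ± 0.02, n = 2) to pheochromocytoma (6.87 ± 0.20, n = 4). Hyperplasia overlapped the old pools, and pheochromocytoma overlapped the young pools. For Chrnb4 it ran from hyperplasia (9.27 ± 0.30) through young wild type (8.71 ± 0.18) and pheochromocytoma (7.93 ± 0.66) to old wild type (7.86 ± 0.29). Pheochromocytoma overlapped both wild-type groups, and hyperplasia lay above the young pools. For Chrna3 hyperplasia (10.99 ± 0.15) and young wild type (10.99 ± 0.04) were above pheochromocytoma (10.52 ± 0.20) and old wild type (10.28 ± 0.26), and within each pair the arrays overlapped. Chrna5 was highest in old wild type (7.63 ± 0.79), followed by pheochromocytoma (6.85 ± 1.18), young wild type (6.78 ± 0.25) and hyperplasia (6.62 ± 0.65), with overlap between every neighbouring pair. Chrnb2 was lowest in pheochromocytoma (5.09 ± 0.13) and stood at 5.42 to 5.64 in the other groups, which overlapped. Chrna4 was highest in old wild type (4.83 ± 0.07) and stood at 4.45 to 4.60 elsewhere.

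Within hyperplasia 4 of the 6 members separated the arrays with Xist from those without it. Chrna7 read 8.56, 8.30, 8.87 and 8.72 with Xist and 7.74, 7.71, 7.86 and 7.29 without it. Every array with Xist lay above every array without it, by 0.96 on average or 1.95-fold. The cluster genes ran the other way. Chrna5 read 6.23, 5.98, 6.06 and 6.10 with Xist and 6.83, 6.76, 7.28 and 7.75 without it. It was lower with Xist by 1.06 on average (2.09-fold), and the arrays with Xist were close together.

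Chrnb4 read 9.03, 8.97, 8.99 and 9.04 with Xist and 9.32, 9.48, 9.64 and 9.68 without it, a gap of 0.53 between the means (1.44-fold). Chrna3 read 10.82, 10.86, 10.89 and 10.84 with Xist and 11.10, 11.08, 11.13 and 11.20 without it, a gap of 0.28 (1.21-fold). Both were lower on every array with Xist, and their SD within a set was 0.03 to 0.16. Chrnb2 and Chrna4 overlapped between the sets. Of all probe sets, 15.9% separated the sets, 7.48% with higher and 8.38% with lower values on the arrays with Xist. The sets were formed after the values had been seen, so no test is given.

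**Figure D3:**
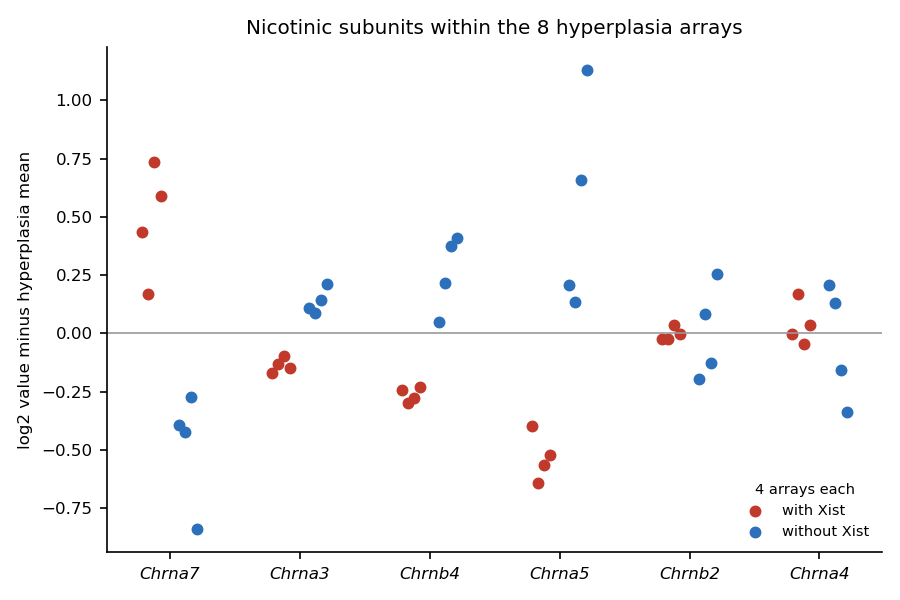
Log2 value minus the gene's mean over the 8 hyperplasia arrays (y axis), red for the 4 arrays with Xist and blue for the 4 without it. The red points of Chrna7 lie above all blue ones, and those of Chrna3, Chrnb4 and Chrna5 below all blue ones.

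The neighbours of the cluster were looked at in the same sets. Of the 5 protein-coding genes on each side of it in RefSeq order, 9 had a probe set. None of them was lower on every array with Xist, as the cluster genes were, and Fbxo22, a subunit of a ubiquitin ligase, was higher on each (9.07 to 9.28 against 8.40 to 9.02). Of all probe sets 8.38% were lower and 7.48% higher on every array with Xist, so 9 genes cannot show how far the split reaches. None of the 9 passed in hyperplasia against young wild type in limma, where 7.40% of all probe sets did. In pheochromocytoma against old wild type, where 14.3% passed, the only one was Etfa, a subunit of a mitochondrial electron carrier. It fell (-0.70 ± 0.15, adjusted p = 0.00542 in limma), and whether that call holds without a pool or with the cortex covariate was not tested.

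The wild-type pools did not follow the split in full. Of the young pools, the one with Xist had more Chrna5 (6.96 against 6.61) and Chrna3 (11.01 against 10.96), and less Chrnb4 (8.58 against 8.84). Chrna7 was almost equal in them. The old pools differed in the direction of the split for Chrna7 (7.37 with Xist, 7.11 without), Chrna5 (7.07 and 8.18) and Chrnb4 (7.66 and 8.06), and in the other direction for Chrna3 (10.47 and 10.10). The cell type markers overlapped between the hyperplasia sets. Cortex means were 11.06 to 11.60 with Xist and 11.30 to 11.91 without it, and chromaffin means 13.13 to 13.22 and 13.16 to 13.26. Schwann and sustentacular means overlapped only narrowly (6.21 to 6.67 with Xist and 5.89 to 6.24 without it). The 3′ excess of the hexokinase controls overlapped as well (1.21 to 1.55 and 1.35 to 1.63). Egr1, an immediate early gene of stimulated cells, also overlapped only narrowly (11.57 to 12.77 with Xist and 9.11 to 11.65 without it). Its part in the split was not tested. Some genes of the lists below separated the sets, as 15.9% of all probe sets did. Among them were Slc5a7, lower with Xist (4.33 to 4.54 against 5.03 to 5.90), and Agtr1a, higher with it (10.51 to 10.87 against 9.39 to 9.83). Slc5a7 lay under the first quartile on all 4 arrays with Xist, so the size of its gap is uncertain.

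Against the young pool of the same Xist state, Chrna7 was higher in hyperplasia in both sets, by 1.64 with Xist and 0.70 without it. Chrnb4 was higher in both as well, by 0.43 and 0.69. The differences of Chrna3 (-0.16 and 0.17) and Chrna5 (-0.87 and 0.55) had opposite signs in the sets. In the older animals Chrna7 was lower in the tumours in both sets, by -0.42 and -0.47, and Chrna5 differed by 0.10 with Xist and by -2.32 for the single tumour without it. Each set has 1 pool, so these are values with no test.

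The other nicotinic subunits, among them those of muscle, of sensory hair cells and of dopamine neurons, and Chrna2, did not pass in limma in either lesion. Of 10 measured, 0 rose and 0 fell, and the median difference was -0.17 in hyperplasia and -0.20 in pheochromocytoma, against medians of -0.023 and -0.014 over all probe sets. Over all probe sets 4.32% rose and 3.08% fell in hyperplasia, and 8.31% rose and 5.95% fell in pheochromocytoma. The smallest p in hyperplasia belonged to Chrna10, a subunit of hair cells (-0.30 ± 0.13, adjusted p = 0.202), whose values lay under the first quartile on all arrays of both young groups. In pheochromocytoma it belonged to Chrna6, a subunit of dopamine neurons (5.44 to 5.74 in the tumours, 5.86 to 6.06 in the pools, -0.37 ± 0.14, adjusted p = 0.0886).

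Among proteins that assemble or modulate the receptors, those that passed were chaperones. Of 11 measured of 14 listed, 1 rose in hyperplasia (4.32% of all probe sets did) and 2 rose in pheochromocytoma (8.31%), and 0 fell in either. Tmem35a, the chaperone NACHO, which is needed for assembly of the Chrna7 channel and helps others, read 10.43 and 10.79 in the young pools and 11.20 to 11.66 in hyperplasia. It rose by 0.82 ± 0.17 (1.76-fold, adjusted p = 0.00747). In pheochromocytoma it read 10.83 to 11.20, against 9.99 and 10.64 in the old pools (0.78 ± 0.18, adjusted p = 0.0101). Ric3, another chaperone of nicotinic subunits, rose in pheochromocytoma (7.80 to 7.96 against 6.97 and 7.70, 0.52 ± 0.16, adjusted p = 0.0417) and did not pass in hyperplasia (0.31, adjusted p = 0.213). Lynx1, a membrane-anchored protein that restrains nicotinic receptors, had the largest difference of the list but did not pass (-1.31 ± 0.45, adjusted p = 0.0942 in hyperplasia; -1.52 ± 0.50, adjusted p = 0.0520 in pheochromocytoma). Those values moved by over 1.5 times with 1 pool, to -0.72 without young pool 2 and to -2.33 and -0.71 without old pool 1 and 2. Without old pool 1 it passed (adjusted p = 0.0133). It was singled out after its values were seen. The list medians were -0.080 in hyperplasia and -0.10 in pheochromocytoma, close to those of all probe sets.

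In the supply of acetylcholine, 1 of 5 measured genes rose in hyperplasia and none passed in pheochromocytoma in limma, with list medians of 0.060 and -0.078. Over all probe sets 4.32% rose in hyperplasia and 14.3% passed in pheochromocytoma. Chat, which makes acetylcholine, rose by 0.80 ± 0.18 (adjusted p = 0.0123), from 4.32 and 4.50 in the young pools, where it lay under the first quartile, to 5.00 to 5.47. Slc5a7, the choline transporter of cholinergic terminals, read 4.10 to 4.43 in the tumours and 4.86 and 5.94 in the old pools (-1.15 ± 0.38, adjusted p = 0.0529). All 4 tumours lay under the first quartile of their arrays for it, so the size of this difference is uncertain. It was -1.69 without old pool 1, where it passed (adjusted p = 0.0202), and -0.60 without old pool 2.

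Through muscarinic receptors acetylcholine acts on G proteins. Of the 5, 2 rose and 0 fell in hyperplasia, against 4.32% and 3.08% of all probe sets, with a list median of 0.27. Chrm1 rose by 0.85 ± 0.15 (1.81-fold, adjusted p = 0.00241), from 5.50 and 5.54 to 6.15 to 6.59. Chrm4 rose by 0.84 ± 0.24 (adjusted p = 0.0428), from 5.15 and 5.52 to 5.56 to 6.58. It separated the hyperplasia sets (6.27 to 6.58 with Xist, 5.56 to 6.02 without it). The Chrm4 call was lost with only the arrays without Xist (0.55) and with the labelled sex covariate. Leaving out any of hyperplasia replicates 1, 3, 4, 5 and 6 also lost it. In pheochromocytoma 0 rose and 1 fell, against 8.31% and 5.95% of all probe sets. The gene that fell was Chrm3, with 5.97 to 6.87 in the tumours against 7.02 and 7.29 (-0.83 ± 0.19, adjusted p = 0.0105).

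Transcription factors tied to the promoters of the ganglionic subunits rose in part. Of 12 measured of 16 listed, 3 rose and 0 fell in hyperplasia (list median 0.33), where 4.32% of all probe sets rose and 3.08% fell. In pheochromocytoma 5 rose and 0 fell (list median 0.54), against 8.31% and 5.95% of all probe sets. Gata2, a zinc finger factor of sympathetic cells, rose in hyperplasia by 1.34 ± 0.27 (2.53-fold, adjusted p = 0.00703), from 9.81 and 10.08 to 10.75 to 11.80. Phox2a, a homeodomain factor needed for noradrenergic cells, rose by 1.02 ± 0.16 in hyperplasia (adjusted p = 0.00139) and by 0.81 ± 0.17 in pheochromocytoma (adjusted p = 0.00651). Isl1, a factor of sympathetic neuron development, rose by 0.78 ± 0.19 (adjusted p = 0.0234) and 0.86 ± 0.21 (adjusted p = 0.0143). In pheochromocytoma Sox10, a factor of neural crest and glia (0.68 ± 0.22, adjusted p = 0.0491), and Gata3, a relative of Gata2 (0.62 ± 0.19, adjusted p = 0.0367), rose too, and the remaining gene that passed was Hand2. Chrna3 and Chrnb4 did not pass in either comparison in which these factors rose.

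**Figure D4:**
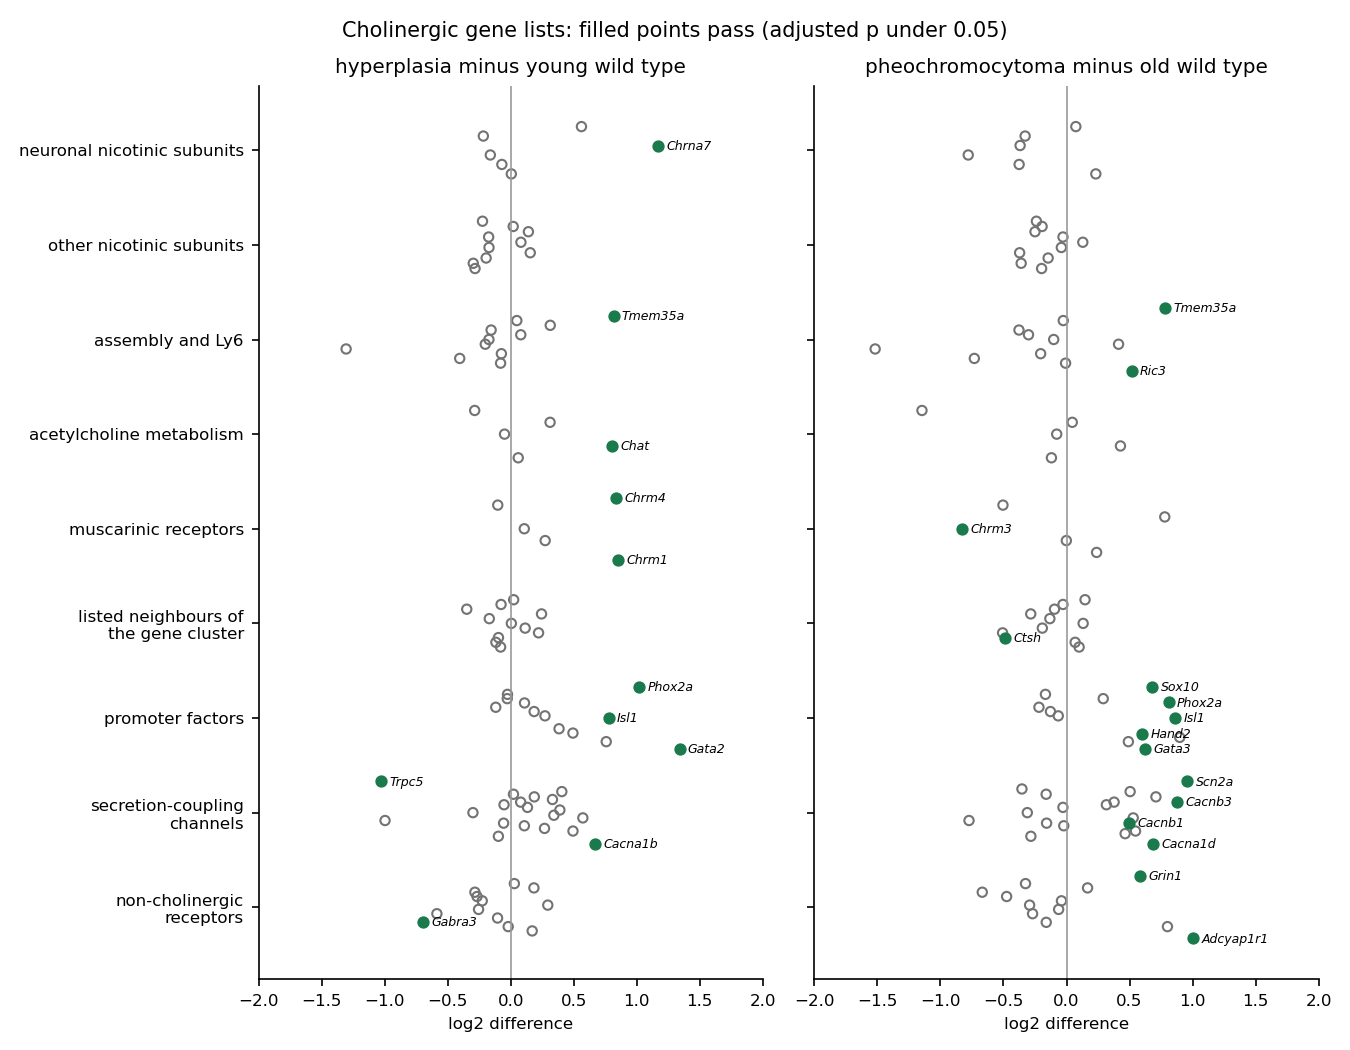
Log2 differences (x axis) of the 6 subunit genes and of 8 gene lists (rows), in hyperplasia on the left and pheochromocytoma on the right; filled green points passed at an adjusted p under 0.05 and are named, open points did not, and vertical place within a row has no meaning. Chrna7 is the only filled point among nicotinic subunits, while Tmem35a, Phox2a and Isl1 are filled on both sides.

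Of the genes listed as neighbours of the cluster, 0 of 11 passed in hyperplasia in limma, where Sh3gl3, an endophilin, had the smallest p (-0.35 ± 0.19, adjusted p = 0.290), and Ctsh, the protease cathepsin H, fell in pheochromocytoma (-0.49 ± 0.15, adjusted p = 0.0398). The list medians were -0.076 and -0.096. Of channels that carry the response on to secretion, 19 of 21 listed were measured. In hyperplasia 1 rose and 1 fell (list median 0.13), and in pheochromocytoma 4 rose and 0 fell (list median 0.38). Over all probe sets 4.32% rose and 3.08% fell in hyperplasia, and 8.31% rose and 5.95% fell in pheochromocytoma. Cacna1b, the N-type calcium channel, rose in hyperplasia by 0.67 ± 0.17 (adjusted p = 0.0225), from 7.82 and 8.04 to 8.47 to 8.93. Trpc5, a receptor-operated cation channel, fell by 1.03 ± 0.21 (adjusted p = 0.00877). It lay under the first quartile on 4 of the 8 hyperplasia arrays, so the size of this fall is uncertain. In pheochromocytoma the sodium channel Scn2a rose by 0.96 ± 0.24 (adjusted p = 0.0158), the calcium channel subunits Cacnb3 by 0.88 ± 0.14 (adjusted p = 0.00117) and Cacnb1 by 0.50 ± 0.15 (adjusted p = 0.0402), and the L-type channel Cacna1d by 0.68 ± 0.21 (adjusted p = 0.0418).

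Of receptors for other inputs to chromaffin cells, 12 of 13 listed were measured, with list medians of -0.16 and -0.11. In hyperplasia 0 rose and 1 fell, against 4.32% and 3.08% of all probe sets. The gene that fell was Gabra3, a GABA receptor subunit (-0.69 ± 0.17, adjusted p = 0.0230). In pheochromocytoma 2 rose and 0 fell, against 8.31% and 5.95% of all probe sets. Adcyap1r1, the receptor for PACAP, a peptide that splanchnic nerves release with acetylcholine, rose by 1.00 ± 0.16 (2.00-fold, adjusted p = 0.00114), from 9.31 and 9.85 to 10.38 to 10.82. Grin1, the common subunit of NMDA receptors, rose by 0.58 ± 0.18 (adjusted p = 0.0429), with overlap between tumours and pools.

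Many of these calls were lost when a pool was left out or the cortex markers entered the fit. Of 10 named calls in hyperplasia, 5 stayed past the threshold without young pool 1, 2 without young pool 2, 2 with the cortex mean as a covariate and 4 without the 4 arrays whose Xist goes against the label. Of 14 in pheochromocytoma, 14 stayed without old pool 1, 1 without old pool 2, 0 with the cortex covariate and 2 when only the arrays compared were fitted. Without old pool 2 the pheochromocytoma differences were 0.46 for Tmem35a, 0.15 for Ric3, 0.50 for Phox2a, 0.57 for Isl1, 0.20 for Gata3, 0.23 for Cacna1d, 0.27 for Grin1 and -0.33 for Ctsh, each smaller by over 1.5 times. Without old pool 1 those of Ric3 (0.88), Gata3 (1.04), Cacna1d (1.14) and Grin1 (0.89) were larger by over 1.5 times. With the cortex covariate Tmem35a was 0.52 in hyperplasia and 0.35 in pheochromocytoma, Isl1 0.39 and 0.29, Chrm4 0.53 in hyperplasia, and Phox2a 0.50, Ric3 0.29, Sox10 0.21 and Scn2a 0.61 in pheochromocytoma.

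Across the 16 arrays the cluster genes Chrna3 and Chrnb4 had the most alike patterns of the 15 pairs of members (Pearson r = 0.838), and 2.52% of all genes had a higher r with Chrna3 than Chrnb4 had. Chrna5 did not go with either (r = -0.064 with Chrna3 and 0.16 with Chrnb4), although it split the hyperplasia arrays in the same direction. Chrna7 and Chrna5 had the most opposite patterns (r = -0.415). These correlations are descriptions over arrays that share groups, ages and array quality. By the same measure over 14216 genes, the most alike to Chrna7 were Amph (r = 0.913), Pdzd2 (0.903) and Lbr (0.897). To Chrna3 they were Epha4 (0.968), Olfm1 (0.965) and Irf2bpl (0.957), to Chrnb4 Daglb (0.920), Nedd4 (0.914) and Srpra (0.901), and to Chrna5 Tinf2 (0.784), Slc25a28 (0.762) and Chrm3 (0.754). To Chrnb2 they were Cfap45 (0.924), Hcn3 (0.863) and Kiaa1755 (0.857), and to Chrna4 Hnrnpab (0.809), Il2ra (0.801) and Trim16 (0.797).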

How the data were processed

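RNA of 16 rat adrenal samples was measured on Affymetrix arrays. The authors deposited 1 log2 value for each probe set of an array. RMA is named as their method, per the submitters' processing notes; the arrays it was run on together are not stated there. RMA corrects background, normalizes quantiles and summarises probes, which can shrink differences near background.

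After 57 control probe sets were left out, 31042 remained. A single symbol belonged to 20826, several to 436 and none to 9780; of the single symbols 20758 were found by Entrez identifier in a RefSeq table and 0 changed. A listed gene stood for its probe set with the highest mean. A model of 4 group means was fitted by limma 3.58.1 (lmFit, eBayes, R 4.3.3), with 12 residual degrees of freedom; tests were two-sided. The script was tested on simulated data. The number of arrays limits the precision.

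The members and gene lists were chosen with earlier results of these data known. Named were all members and, from each list and lesion, up to 4 passing genes with the largest differences, or the gene with the smallest p; for likeness, the 3 genes with the highest Pearson r. The alternatives tried were sex, Xist, cortex or hexokinase covariates, other scalings, priors, array subsets, a replicate block and leaving out each array. The Xist sets (split at a log2 value of 8) and the hexokinase covariate were added after seeing the data.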

Additional observations from a re-analysis of the deposited data

Results flagged for a closer look

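The estimates for Chrna7 ran in opposite directions in the lesions, with all 8 hyperplasia arrays above the young pools and all 4 tumours below the old pools. In the tumours the 95% confidence interval (-1.09 to 0.36) spanned 0, so a fall there was not shown. Of all probe sets, 19.9% lay below the old pools on all 4 tumours. The difference between the effects was -1.54 (log2), and it did not pass over all probe sets in limma (adjusted p = 0.244). Of 31 genes checked for such opposite directions or for a difference past the threshold, 1 showed it. These were the 6 members and the genes named from the lists, most of them named because they passed in these comparisons. Of all probe sets, 0.522% had opposite directions on every array and 0.0258% a difference past the threshold. Dixon's test at 95% for a single array apart from its group, run for the 6 members in hyperplasia and in pheochromocytoma, found 0 of 12. For Chrnb4 in pheochromocytoma, where replicate 2 was the highest, the gap was 0.658 of the range, under the critical value for 4 samples, and for Chrna3, where replicate 4 was the lowest, it was 0.820, also under it.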

How the results depend on the processing

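Of the 6 members, 1 passed in hyperplasia. The count was 0 without the 4 hyperplasia arrays whose Xist goes against the label (Chrna7 at 1.04, adjusted p = 0.0720), with only the arrays compared (adjusted p = 0.0638), with the cortex covariate and with the replicate block (1.02, adjusted p = 0.0858), and 0 to 1 when an array was left out in turn. Chrna7 kept its direction in all 23 alternatives (0.69 to 1.65). In pheochromocytoma the count went from 0 to 1, Chrna4, with the labelled sex covariate and with median centring, and stayed at 0 whichever array was left out. For the difference of effects it went from 0 to 1 with only the 4 hyperplasia arrays with Xist (Chrna7 at -2.02). Those arrays were set apart after the values had been seen and are the highest in Chrna7, so this count is no test. For pheochromocytoma against hyperplasia it went from 4 to 0 with the hexokinase covariate and was 3 to 4 with an array left out. For old against young pools it went from 1 to 0 with only the arrays compared and with the hexokinase covariate, and was 0 to 1 with an array left out. The causes were not tested.

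Differences that changed sign had not passed. In hyperplasia these were Chrna5 at 0.025 without the 4 conflicting arrays, 0.53 with the cortex covariate, 0.11 with the replicate block, 0.37 with only the arrays without Xist and 0.22 with the hexokinase covariate, Chrna3 at -0.014 with median centring, -0.13 with only the arrays with Xist and -0.024 with the hexokinase covariate, and Chrna4 at 0.071 with the block. In pheochromocytoma they were Chrnb4 at -0.0066 with quantile normalization and Chrna5 at 0.24 with the cortex covariate. Against hyperplasia they were Chrna4 at 0.0041 without the conflicting arrays and 0.095 with the hexokinase covariate, and Chrna5 at -0.31 with only the arrays without Xist. Between pools it was Chrnb4 at 0.15 with the hexokinase covariate. Leaving out each array gave ranges across 0 for Chrna3 (-0.025 to 0.031), Chrna4 (-0.16 to 0.023), Chrna5 (-0.34 to 0.018) and Chrnb2 (-0.44 to 0.0034) in hyperplasia, Chrnb4 in pheochromocytoma (-0.24 to 0.28), Chrnb2 in the difference of effects (-0.33 to 0.11), Chrna5 against hyperplasia (-0.34 to 0.55) and Chrnb2 between pools (-0.44 to 0.0016).

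The probe sets past the threshold in hyperplasia, 2296 of 31042, numbered 363 with the cortex covariate, 556 with the replicate block, 689 without the conflicting arrays, 910 and 564 without young pool 1 and 2, and 3988 and 1297 with only the arrays with and without Xist. In pheochromocytoma 4425 became 81 with the cortex covariate, 1593 with the block, 1915 with only the arrays compared and 596 without old pool 2. Between pools 7366 became 987 with the hexokinase covariate, 3770 with only the arrays compared, 4500 and 4617 without young pool 1 and 2, and 4867 without old pool 2. For the difference of effects 8 became 649 without old pool 1 and 133 with only the arrays with Xist, and was 0 to 22 in the other alternatives. Equal replicate numbers did not pair the samples (correlations of deviations -0.18 to 0.21 over 14 pairs, and -0.21 to 0.20 over 70 pairs of unequal numbers). Averaging probe sets of a gene gave no value because each member has 1, Chrna4 dropped out with the 30% dimmest, and the signal of Chrna4 and Chrnb2 over background limits what their values can show.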
